A study of Mus musculus with 24 samples.

Results

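The genes described are the chains of the basement membrane, the collagens outside the main fibril-forming set, and the integrins that bind matrix. The theme was chosen with earlier results of these data known, and its members were then taken by symbol: collagen chains, laminin alpha, beta and gamma chains, nidogens and integrin alpha and beta chains, leaving out Col1a1, Col1a2, Col3a1, Col5a1, Col5a2 and Itgb2. Of the 12091 genes in the deposited table used here, 50 met the rule: 24 collagens, 8 laminin chains, 2 nidogens, 9 integrin alpha chains and 7 integrin beta chains.

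RNA was sequenced from mouse mammary tumors and tumor cell lines in which pleiotrophin (PTN) had been blocked by an antibody or knocked down, with 3 samples in each of 8 groups. Orthotopic 4T1 tumors came from female BALB/c mice, injected with cells at 8 wk of age and given the PTN-neutralizing mouse antibody 3B10 or the control IgG C44, with treatment begun at a palpable size of about 50 mm3. Spontaneous mammary tumors came from MMTV-PyMT mice on FVB/N, in which a mammary tumor virus promoter drives the polyoma middle T antigen, treated with 3B10 or C44 from after 8 wk of age to 12 wk. The antibody dose was 15 mg/kg, given on 2 days per wk. The cell lines were E0771, a C57BL/6 mammary carcinoma line, and E0771-LG, which was derived from a lung metastasis of E0771. Each line carried either an shRNA against Ptn (shPTN) or a pLKO.1-puro vector aimed at EGFP (shCtrl), and the puromycin-selected populations were kept for 6 wk. A single Ptn construct was used, so its own off-target effects and those of PTN loss cannot be told apart. The cell line comparisons ask what loss of PTN changes inside tumor cells, and the tumor comparisons ask what blocking PTN changes in whole tumors.

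A basement membrane is a thin sheet on which epithelial cells rest, built from a laminin network and a collagen IV network that nidogens and perlecan join. Each laminin is a trimer of an alpha, a beta and a gamma chain, each collagen IV molecule is a trimer of alpha chains, and each integrin is a dimer of an alpha and a beta chain that links matrix to the actin or keratin skeleton. In the mammary gland this sheet surrounds the ducts, and carcinoma cells cross it when they invade.

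Values are log2 expression values as deposited. In 18 of the 24 samples (both cell lines and the MMTV-PyMT tumors) they are log2 CPM (reads per M reads of the library, 0.5 read added), and library sizes recovered from them, in M reads, ran from 15.63 to 21.12 with a median of 18.25. The 6 4T1 samples are on another scale that falls with gene length, and their depth is unknown. A gene was tested where at least 3 of the 6 samples of the experiment reached 1 off the log scale above the sample's lowest value, and a call is a limma adjusted p under 0.05 over the genes tested in that experiment. In MMTV-PyMT 50 of the 50 members were tested, in 4T1 41, in E0771-LG 34 and in E0771 33. The 17 members not tested in E0771 had at most 28 reads in any library, and the 16 not tested in E0771-LG at most 17 reads.

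Some libraries stood apart across the members. In E0771-LG, shCtrl replicate 1 was the lowest of its group for 29 of 34 members, or 85.3% against 40.7% of the genes tested, with a median deviation of -0.58 log2 units from the other replicates. In E0771, shCtrl replicate 1 was the lowest of its group for 22 of 33 members (66.7% against 38% of genes), with a median deviation of -0.17. Of the knockdown libraries, shPTN replicate 3 was the highest of its group for 22 of 34 members in E0771-LG (64.7% against 33.1%) and for 18 of 33 in E0771 (54.5% against 27%). Among the 4T1 tumors, 3B10 replicate 1 was the lowest of its group for 32 of 41 members (78% against 57.6% of genes) and C44 replicate 3 for 30 of 41 (73.2% against 54.4%), with median deviations of -0.58 and -0.53. C44 replicate 2 was the highest of its group for 28 of 41 (68.3% against 42.7%) and 3B10 replicate 2 for 27 of 41 (65.9% against 39.4%). Among the MMTV-PyMT tumors, C44 replicate 2 was the highest of its group for 35 of 50 members (70% against 35.5%) and C44 replicate 3 the lowest for 36 of 50 (72% against 36.8%).

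The targeted gene was lower in the knockdown libraries of both lines. In E0771, Ptn stood at 2.90, 2.18 and 2.28 log2 CPM in shCtrl replicates 1, 2 and 3 and at -0.63, 0.25 and 0.53 in the shPTN replicates. Ptn in E0771-LG stood at 3.65, 4.51 and 3.74 in shCtrl and at 1.42, 0.98 and 1.38 in shPTN. Each shPTN library was below each shCtrl library of its line. Ptn fell by 2.40 log2 units in E0771 (SE 0.37, adjusted p = 0.00159), to 18.9% of control. It fell by 2.71 in E0771-LG (SE 0.28, adjusted p = 6.3e-05), to 15.3% of control, and the difference between the lines was -0.30 (adjusted p = 0.647).

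In E0771 cells, knockdown of Ptn went with more mRNA of the collagen IV chains, of laminin beta 1 and of the integrin alpha 7 chain, and with less mRNA of laminin gamma 1 and of the integrin alpha 6 chain. Of the 33 members tested, 6 were called lower, or 18.2%, against 11.7% of the genes tested. Another 11 were called higher, or 33.3%, against 8.89% of the genes tested. The median log2 fold change was 0.15 over the members and -0.03 over the genes tested, and the median absolute change was 0.68 against 0.19. The members' median rested on single libraries, at -0.03 without shCtrl replicate 1, 0.27 without shCtrl replicate 3 and 0.09 without shPTN replicate 3. The members ran from -1.67 to 1.63. At an unadjusted p under 0.05, 21 members and 3541 of the 10394 genes tested passed in either direction. Of the collagens, 5 of 14 tested were higher and 0 lower by limma (1 lower at that unadjusted p, 0 lower by voom). That collagen, Col5a3, named after its values were seen, had a log2 fold change of -0.38 (adjusted p = 0.0565) and was called with the replicate block (-0.38) and without shCtrl replicate 1 (-0.51) or shPTN replicate 1 (-0.45), with adjusted p from 0.0196 to 0.673 over 16 alternatives. Among laminin chains 2 of 6 were lower and 3 higher, among integrin alpha chains 3 of 7 were lower and 2 higher, and among integrin beta chains 1 of 5 was lower and 1 higher. The count of genes called in the whole table rested on some libraries: without shCtrl replicate 2 it was 671 lower and 597 higher, without shCtrl replicate 3 it was 648 and 523, and without shPTN replicate 3 it was 746 and 492, against 1216 and 924. Over the same settings the members gave 5 lower and 9 higher, 5 and 9, and 6 and 8.

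In E0771-LG cells, knockdown went with less mRNA of 5 of the 7 integrin alpha chains tested and of laminin gamma 1, while collagen IV was not called. Of the 34 members tested, 9 were called lower, or 26.5%, against 22.1% of the genes tested. A further 3 were called higher, or 8.82%, against 24.3% of the genes tested. The median log2 fold change was 0.04 over the members and 0.05 over the genes tested, the median absolute change 0.55 against 0.37, and the range -1.40 to 1.39. The members' median was -0.20 without shCtrl replicate 1 and 0.20 without shCtrl replicate 2, so its sign rested on single libraries. Among integrin alpha chains 5 of 7 were lower and 1 higher. Laminin chains had 2 of 6 lower, integrin beta chains 1 of 5 lower and 1 higher, and collagens 1 of 15 lower and 1 higher. Col5a3, at 0.85 here (adjusted p = 0.147), was called with the replicate block (0.85) and without shCtrl replicate 2 (1.24), with adjusted p from 0.0229 to 0.278 over 16 alternatives. Without shCtrl replicate 1 the members gave 13 lower and 4 higher, and without shCtrl replicate 2 they gave 7 lower and 7 higher. The whole table of 10405 genes tested gave 2515 lower and 2607 higher in the first case and 2234 and 2683 in the second, against 2295 and 2531. Without shPTN replicate 2 it gave 1588 and 1657, and the members 7 and 3.

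The effect of knockdown differed between the lines for 10 of the 32 members tested in both, or 31.2%, against 34.7% of the genes tested. The share of members with a differing effect was thus near that of the table. The test is the interaction term of a limma fit over both lines, given as the effect in E0771-LG minus the effect in E0771. The difference for Col5a3, 1.24 (adjusted p = 0.0584), passed by eBayes without robust, with no filter or with the replicate block (1.24 in each), and without E0771-LG shCtrl replicate 1 (0.81), shCtrl replicate 2 (1.62) or shPTN replicate 1 (1.40), with adjusted p from 0.0033 to 0.131 over 20 alternatives.

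**Figure D1:**
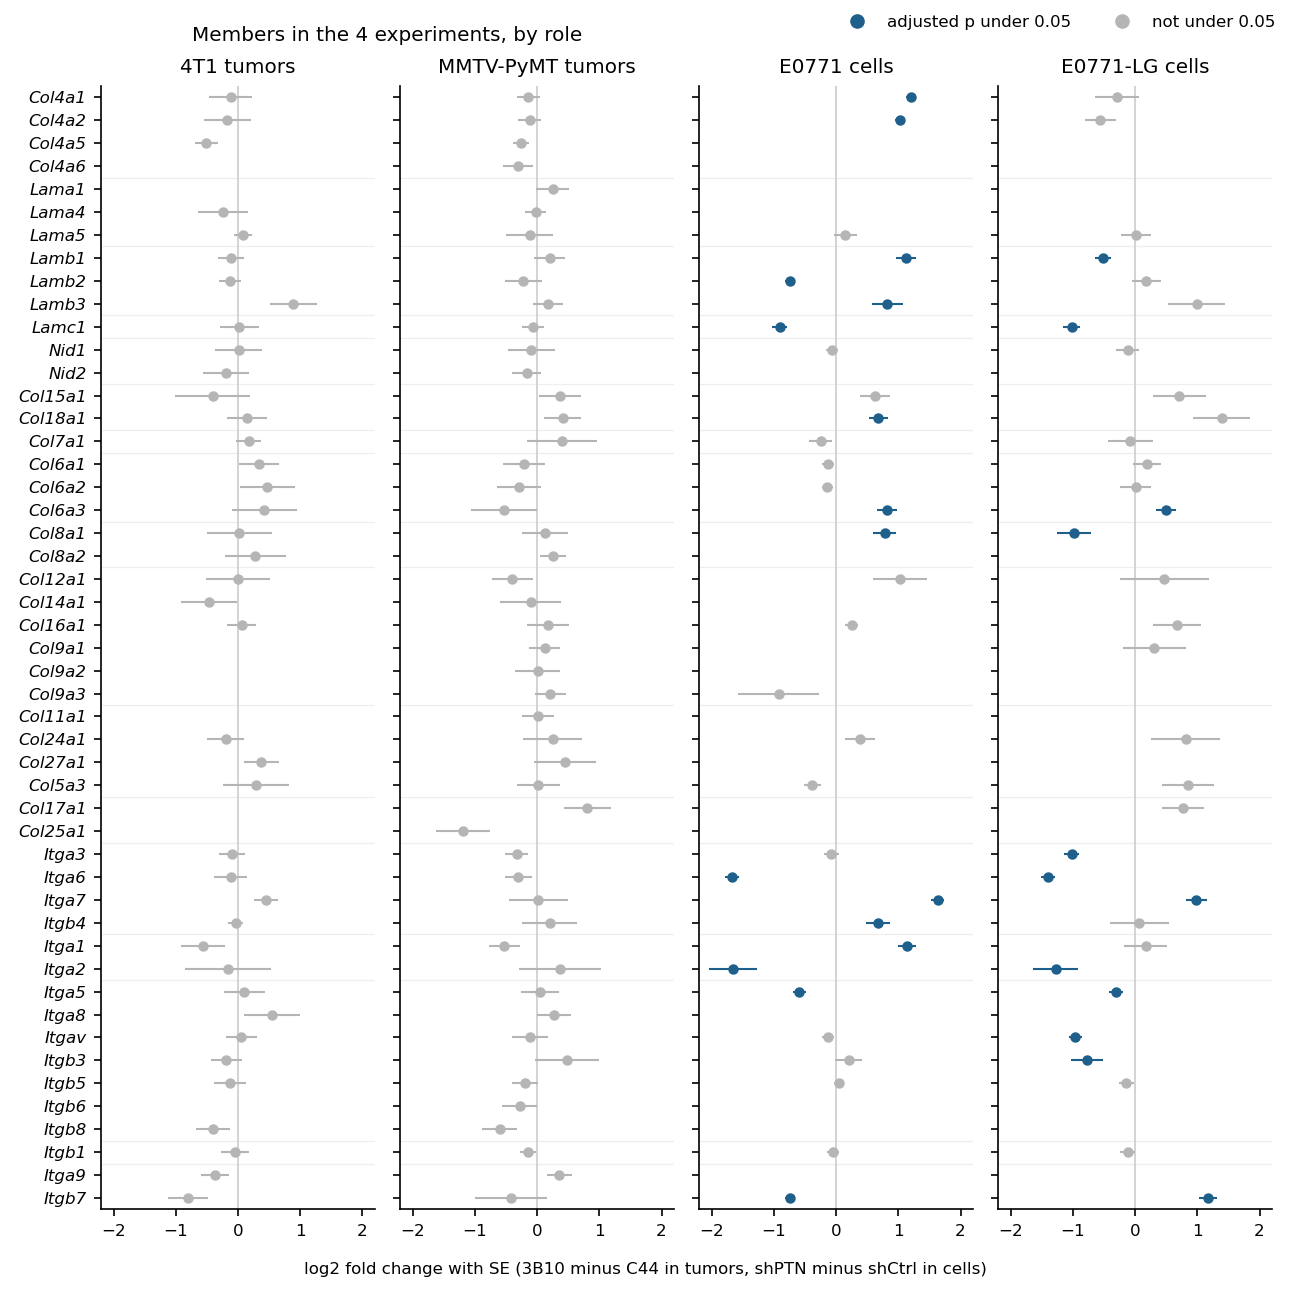
Log2 fold change with its SE (inhibited minus control, n = 3 per group) for 49 of the 50 members by role in the 4 experiments, with members past an adjusted p of 0.05 in blue. Calls appear in the cell lines and in neither tumor experiment.

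Collagen IV chains Col4a1 and Col4a2 form the trimer of most basement membranes. Their genes lie head to head on chromosome 8 of GRCm38, Col4a1 (ENSMUSG00000031502) from 11198423 to 11312826 on the minus strand and Col4a2 (ENSMUSG00000031503) from 11312805 to 11449287 on the plus strand, with starts 21 bases apart. The stretch between and around the starts is shown because both chains were called in E0771, in the same direction. RefSeq promoter windows (GRCm38.p6, 250 bases before to 50 after the start) were found for 38 of the 50 members, and those of the pair share 78 bases. The Col4a1 window is chr8:11312777-11313076 on the minus strand and the Col4a2 window is chr8:11312555-11312854 on the plus strand. Capitals mark the GC box letters GGGCGG and the CAAT box letters CCAAT on either strand, which do not overlap each other.
Col4a1: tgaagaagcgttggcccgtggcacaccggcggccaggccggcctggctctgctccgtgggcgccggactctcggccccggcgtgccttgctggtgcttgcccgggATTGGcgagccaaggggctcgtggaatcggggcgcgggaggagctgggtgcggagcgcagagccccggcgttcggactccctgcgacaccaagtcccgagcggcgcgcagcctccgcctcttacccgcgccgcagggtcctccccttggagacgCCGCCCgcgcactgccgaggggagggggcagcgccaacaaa
Col4a2: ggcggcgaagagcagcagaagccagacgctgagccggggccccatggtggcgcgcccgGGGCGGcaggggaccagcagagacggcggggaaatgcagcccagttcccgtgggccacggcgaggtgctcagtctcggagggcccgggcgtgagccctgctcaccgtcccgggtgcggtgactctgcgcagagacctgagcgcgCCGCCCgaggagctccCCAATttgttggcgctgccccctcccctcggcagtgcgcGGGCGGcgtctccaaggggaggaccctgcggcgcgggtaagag
GC content was 74% in the Col4a1 window and 73.7% in the Col4a2 window, against a median of 52.7% over the 32851 windows of the table. GGGCGG occurred at 1 place in the Col4a1 window and at 3 in the Col4a2 window, and 35.7% of the 32851 windows hold it. The Col4a1 match and the Col4a2 match nearest its start are the same bases of the shared stretch, read on opposite strands. CCAAT occurred at 1 place in each, and 37.4% of the windows hold it. TATAAA (13.6% of windows) and TGANTCA (7.81%) had 0 matches in both. A match is a description of letters, not of a bound site.

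**Figure D2:**
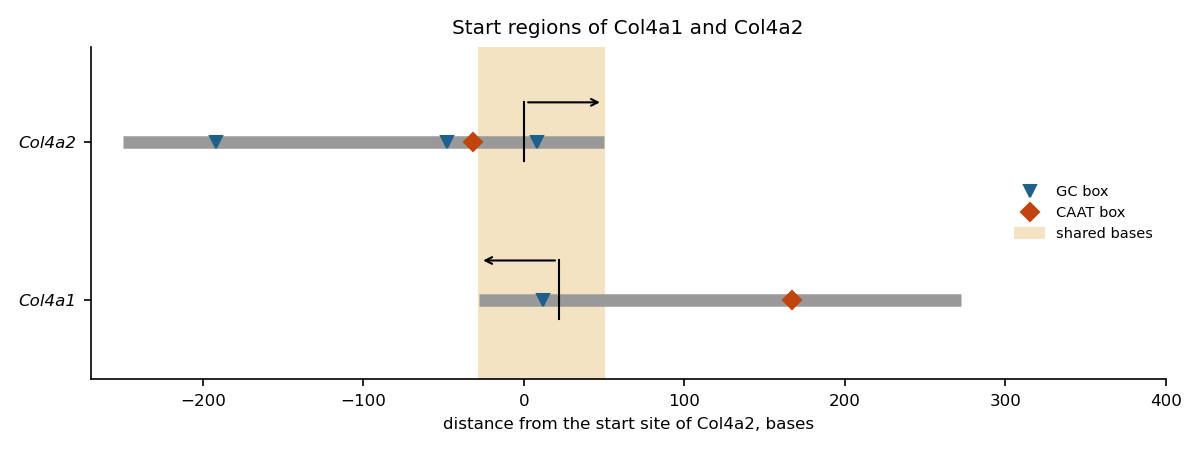
Promoter windows of Col4a1 and Col4a2 drawn by distance in bases from the Col4a2 start, with triangles at GGGCGG and diamonds at CCAAT on either strand and the 78 shared bases shaded. The starts lie 21 bases apart and the genes run in opposite directions. The GGGCGG site in the shared bases is drawn for both genes.

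In E0771, Col4a1 stood at 8.93, 8.85 and 8.86 log2 CPM in shCtrl and at 10.02, 10.12 and 10.11 in shPTN. Col4a2 stood at 7.97, 7.88 and 7.99 in shCtrl and at 8.92, 8.98 and 9.03 in shPTN. For both chains the 3 knockdown libraries lay about as far above the controls, and no values overlapped. Col4a1 rose by 1.20 log2 units (SE 0.08, adjusted p = 6.9e-06), to 230% of control. Col4a2 rose by 1.03 (SE 0.08, adjusted p = 1.84e-05), to 204% of control. The difference of log2 CPM between the chains, Col4a1 minus Col4a2 and not corrected for length, was 0.94 in shCtrl and 1.11 in shPTN.

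In E0771-LG, Col4a1 stood at 7.92, 9.11 and 9.25 in shCtrl and at 8.61, 8.40 and 8.40 in shPTN. Col4a2 in that line stood at 7.72, 8.54 and 8.71 in shCtrl and at 7.85, 7.66 and 7.79 in shPTN. The groups overlapped because shCtrl replicate 1 was low, while the other controls were above every knockdown library. Col4a1 came to -0.29 on the log2 scale (SE 0.36, adjusted p = 0.544) and Col4a2 to -0.56 (SE 0.25, adjusted p = 0.112), and neither was called. Without shCtrl replicate 1 both were called, at -0.71 for Col4a1 (adjusted p 7.98e-05 to 0.934 over 16 alternatives) and -0.86 for Col4a2 (3.04e-05 to 0.301). The effect differed between the lines by -1.49 for Col4a1 (SE 0.38, adjusted p = 0.0118) and by -1.59 for Col4a2 (SE 0.27, adjusted p = 0.00105), and both differences passed in each of 20 alternatives. Whether counting used strand is not stated, so reads cannot be told apart in the 0.295% of the Col4a1 exon length that overlaps Col4a2 and in the 0.982% of the Col4a2 exon length that overlaps Col4a1 and Gm15419. The same uncertainty holds for 2.06% of the exon length of Nid1, 5.9% of Itgav, 7.66% of Itgb4 and 0.111% of Itga7, which overlap genes on the other strand. In Itga1, 3.68% of the exon length overlaps a gene on its own strand, which strand does not separate.

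Summed per kilobase, the collagen IV chains gave 100 RPKM (reads per kilobase of exon per M reads, SD 3.05, n = 3) in E0771 shCtrl and 222 (SD 8.39) in shPTN. In E0771-LG the same sum was 113 (SD 42.8) in shCtrl and 80.6 (SD 5.95) in shPTN. The spread of the E0771-LG controls, from 64.3 in replicate 1 to 145 in replicate 3, was wider than the gap between its groups. Col4a5 and Col4a6, whose genes lie head to head on chromosome X with 1308 bases between them, had too few reads to be tested in either line.

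Laminin chains of the same trimer moved in opposite directions in E0771. Lama5, Lamb1 and Lamc1 are the chains of the main laminin of adult epithelial basement membranes. In E0771, Lamb1 stood at 6.60, 7.28 and 7.17 in shCtrl and at 8.07, 8.13 and 8.24 in shPTN. Lamc1 stood at 9.0, 9.27 and 9.27 in shCtrl and at 8.04, 8.41 and 8.37 in shPTN. Lamb1 was higher and Lamc1 lower in each knockdown library than in any control, with no overlap. Lamb1 rose by 1.13 (SE 0.16, adjusted p = 0.00114), to 219% of control, and Lamc1 fell by 0.91 (SE 0.12, adjusted p = 0.000542), to 53.2% of control. Lama5 stood at 7.50, 8.19 and 8.20 in shCtrl and at 8.01, 8.01 and 8.32 in shPTN. Its groups overlapped, and its change of 0.15 (SE 0.19) had an adjusted p of 0.62. Lamb2, a beta chain of vascular and synaptic basement membranes and named after its values were seen, stood at 6.99, 7.05 and 7.15 in shCtrl and at 6.31, 6.36 and 6.31 in shPTN. Lamb2 was thus lower where Lamb1 was higher, without overlap, and fell by 0.74 (SE 0.08, adjusted p = 0.000261), to 60% of control, a call lost in the fit of all 24 samples (-0.74).

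In E0771-LG, Lamb1 stood at 8.18, 8.59 and 8.69 in shCtrl and at 7.86, 7.98 and 8.05 in shPTN. Lamc1 there stood at 8.63, 9.08 and 9.14 in shCtrl and at 7.92, 7.79 and 8.07 in shPTN. Both chains were lower in every knockdown library than in every control, with the larger gap for Lamc1. Lamb1 fell by 0.52 (SE 0.13, adjusted p = 0.00703), to 69.5% of control, opposite to its direction in E0771, a call lost in the fit of all 24 samples (-0.52). Lamc1 fell by 1.02 (SE 0.14, adjusted p = 0.000269), to 49.3% of control. For Lamb1 the effect in E0771-LG minus that in E0771 was -1.66 (SE 0.23, adjusted p = 0.000226), and for Lamc1 it was -0.11 (adjusted p = 0.687). Lama5 had a log2 fold change of 0.01 (adjusted p = 0.987), and Lamb2 of 0.18 (adjusted p = 0.549) with a difference between lines of 0.92 (SE 0.27, adjusted p = 0.0166). Lamb1 minus Lamc1, as a difference of log2 CPM not corrected for length, was -2.17 in shCtrl and -0.12 in shPTN of E0771, and -0.46 and 0.04 in E0771-LG.

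Lamb3 is the beta chain of the laminin under hemidesmosomes, and it was scarce in the lines; the alpha chain gene Lama3 was not analysed here. In E0771, Lamb3 stood at 1.43, 1.22 and 1.17 in shCtrl and at 1.97, 2.16 and 2.17 in shPTN, or 37 to 47 reads against 70 to 80. All its knockdown values were above all control values. Lamb3 rose by 0.82 (SE 0.25, adjusted p = 0.0364), and lost its call without shCtrl replicate 2 (0.80), shCtrl replicate 3 (0.77), shPTN replicate 1 (0.89), shPTN replicate 2 (0.80) or shPTN replicate 3 (0.79), and with all libraries kept by the replicate block (0.82), quantile normalization (0.73) or the fit of all 24 samples (0.82), with adjusted p from 0.0289 to 0.149 over 15 alternatives.

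In E0771-LG, Lamb3 stood at -0.47, 0.44 and 0.89 in shCtrl and at 0.75, 1.48 and 1.59 in shPTN. The groups overlapped, and its log2 fold change of 0.99 (SE 0.46) had an adjusted p of 0.0956. It was called in the fit of all 24 samples (0.99, adjusted p 0.0271 to 0.363 over 15 alternatives).

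Summed per kilobase, the laminin beta chains gave 35.7 RPKM in shCtrl and 42.5 in shPTN of E0771, and 40.4 and 29.5 in E0771-LG (means, n = 3). The mean beta sum was thus higher in knockdown cells of E0771 and lower in those of E0771-LG. Nid1, the link between laminin and collagen IV, stood at 8.47, 8.81 and 8.67 in E0771 shCtrl and at 8.52, 8.57 and 8.65 in shPTN. The groups overlapped, and its log2 fold change was -0.07 (adjusted p = 0.673). In E0771-LG, Nid1 stood at 8.96, 9.63 and 9.72 in shCtrl and at 9.26, 9.25 and 9.43 in shPTN, again overlapping, with a log2 fold change of -0.12 (adjusted p = 0.63). Without shCtrl replicate 1 of E0771-LG it was called at -0.36 (adjusted p 0.0028 to 0.943 over 16 alternatives).

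Collagen VI forms beaded filaments beside basement membranes from the chains Col6a1, Col6a2 and Col6a3. In E0771, Col6a3 stood at 4.54, 5.17 and 5.07 in shCtrl and at 5.70, 5.62 and 5.90 in shPTN. Col6a3 in E0771-LG stood at 5.24, 5.72 and 5.96 in shCtrl and at 6.05, 6.15 and 6.24 in shPTN. The knockdown libraries were above the controls in both lines, by a small margin in E0771-LG. Col6a3 rose by 0.82 in E0771 (SE 0.16, adjusted p = 0.00532), to 176% of control, a call lost in the fit of all 24 samples (0.82). It rose by 0.50 in E0771-LG (SE 0.16, adjusted p = 0.0281), a call lost without shPTN replicate 2 (0.50) or shPTN replicate 3 (0.46), and with no filter or in the fit of all 24 samples (0.50 in both), with adjusted p from 0.0069 to 0.388 over 16 alternatives. With 1 library left out, the E0771-LG value of Col6a3 ran from 0.31 to 0.66. The partner chains were not called: Col6a1 had a log2 fold change of -0.13 in E0771 (adjusted p = 0.332) and of 0.19 in E0771-LG (adjusted p = 0.53). Col6a2, whose gene lies 85161 bases from Col6a1 on chromosome 10, had -0.14 in E0771 (adjusted p = 0.31) and 0.01 in E0771-LG (adjusted p = 0.97). Without shCtrl replicate 2 of E0771-LG, Col6a1 was called at 0.42 (adjusted p 0.0412 to 0.823 over 16 alternatives).

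Col8a1 encodes a short-chain collagen of endothelial and corneal sheets. In E0771, Col8a1 stood at 3.05, 3.04 and 2.95 in shCtrl and at 3.99, 3.49 and 3.91 in shPTN. Col8a1 in E0771-LG stood at 2.87, 2.48 and 3.23 in shCtrl and at 1.95, 1.59 and 2.11 in shPTN. Knockdown libraries were above the controls in E0771 and below them in E0771-LG, with no overlap in either. Col8a1 rose by 0.78 in E0771 (SE 0.18, adjusted p = 0.0106), a call lost without shPTN replicate 3 (0.73) or in the fit of all 24 samples (0.78, adjusted p 0.00274 to 0.256 over 16 alternatives). It fell by 0.98 in E0771-LG (SE 0.27, adjusted p = 0.0127), a call lost without shCtrl replicate 3 (-0.79) or shPTN replicate 2 (-0.83), or in the fit of all 24 samples (-0.98), with adjusted p from 0.00386 to 0.072 over 16 alternatives. The effects differed by -1.76 (SE 0.32, adjusted p = 0.00106), in each of 20 alternatives. Col18a1, a basement membrane collagen whose end fragment is endostatin and which was named after its values were seen, stood at 6.24, 6.78 and 6.69 in E0771 shCtrl and at 7.44, 7.05 and 7.25 in shPTN. Its knockdown values lay above the controls, and it rose by 0.68 (SE 0.15, adjusted p = 0.00919), a call lost in the fit of all 24 samples (0.68). In E0771-LG, Col18a1 stood at 5.14, 6.95 and 6.47 in shCtrl and at 7.44, 7.60 and 7.69 in shPTN. These groups did not overlap either, yet its log2 fold change of 1.39 (SE 0.46) had an adjusted p of 0.0523. Col18a1 was called in 7 of 16 alternatives: with all libraries kept, by voom (1.38), by eBayes without robust, with no filter, with a filter of at least 5 and in the fit of all 24 samples (1.39 in each of these 4), and without shCtrl replicate 1 (0.86) or shCtrl replicate 2 (1.77), with adjusted p from 0.00075 to 0.109 over 16 alternatives.

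Among the integrin alpha chains that bind laminin, Itga6 fell and Itga7 rose in both lines. Itga6 (ENSMUSG00000027111) pairs with Itgb1 or, in hemidesmosomes, with Itgb4, and Itga7 (ENSMUSG00000025348) pairs with Itgb1 and is best known from muscle. In E0771, Itga6 stood at 7.24, 7.69 and 7.43 in shCtrl and at 5.71, 5.75 and 5.87 in shPTN. Itga7 stood at 5.10, 5.21 and 5.09 in shCtrl and at 6.80, 6.65 and 6.83 in shPTN. The groups were apart for both chains, in opposite directions. Per kilobase, Itga6 averaged 19.5 RPKM in shCtrl and 6.08 in shPTN, and Itga7 4.34 and 13.4, so that the order of the pair switched. Itga6 fell by 1.67 (SE 0.11, adjusted p = 8.79e-06), to 31.3% of control, and Itga7 rose by 1.63 (SE 0.10, adjusted p = 3.83e-06), to 309% of control.

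In E0771-LG, Itga6 stood at 6.95, 7.24 and 7.30 in shCtrl and at 5.76, 5.74 and 5.82 in shPTN. Itga7 in that line stood at 3.83, 4.39 and 4.17 in shCtrl and at 4.93, 5.02 and 5.38 in shPTN. The directions were those of E0771 and no values overlapped between the groups. Per kilobase, Itga6 averaged 16 RPKM in shCtrl and 6.04 in shPTN, and Itga7 2.19 and 4.31, so the mean of Itga6 was the higher in both groups. Itga6 fell by 1.40 (SE 0.11, adjusted p = 2.42e-05), to 38% of control, and Itga7 rose by 0.98 (SE 0.17, adjusted p = 0.00123), to 197% of control. The effect on Itga6 differed between the lines by 0.28 (adjusted p = 0.199), and that on Itga7 by -0.64 (SE 0.20, adjusted p = 0.0241). The difference for Itga7 lost its call without E0771 shCtrl replicate 3 (-0.62) or shPTN replicate 3 (-0.61), and without E0771-LG shCtrl replicate 3 (-0.62), shPTN replicate 1 (-0.56) or shPTN replicate 2 (-0.60), with adjusted p from 0.00455 to 0.0621 over 20 alternatives. The difference of log2 CPM, Itga7 minus Itga6 and not corrected for length, was -2.32 in shCtrl and 0.98 in shPTN of E0771, a shift of 3.30, and -3.03 and -0.66 in E0771-LG, a shift of 2.38.

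Itga3 is another laminin-binding alpha chain. In E0771, Itga3 stood at 6.77, 7.27 and 7.18 in shCtrl and at 6.96, 6.99 and 7.02 in shPTN. Itga3 in E0771-LG stood at 6.71, 7.02 and 7.03 in shCtrl and at 5.78, 5.85 and 6.07 in shPTN. The groups overlapped in E0771 and were apart in E0771-LG. Itga3 had a log2 fold change of -0.08 in E0771 (adjusted p = 0.671) and fell by 1.02 in E0771-LG (SE 0.12, adjusted p = 0.00015), to 49.4% of control. The effects differed by -0.94 (SE 0.18, adjusted p = 0.00164). Itgb4, the partner of Itga6 in hemidesmosomes, stood at 3.30, 3.27 and 3.05 in E0771 shCtrl and at 3.91, 3.54 and 4.18 in shPTN. Its knockdown values were above the controls, and it rose by 0.67 (SE 0.19, adjusted p = 0.0276). That call was lost without shCtrl replicate 2 (0.70), shCtrl replicate 3 (0.59), shPTN replicate 1 (0.66) or shPTN replicate 3 (0.52), and with no filter or in the fit of all 24 samples (0.67 in both), with adjusted p from 0.00621 to 0.289 over 16 alternatives. In E0771-LG, Itgb4 had a log2 fold change of 0.07 (adjusted p = 0.911). Itga3, Itga6 and Itga7 together gave 47.7 RPKM (SD 7.22, n = 3) in E0771 shCtrl and 41.7 (SD 1.40) in shPTN, a gap smaller than the spread of the controls. In E0771-LG the same sum was 39.5 (SD 4.91) in shCtrl and 20.8 (SD 2.05) in shPTN.

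**Figure D3:**
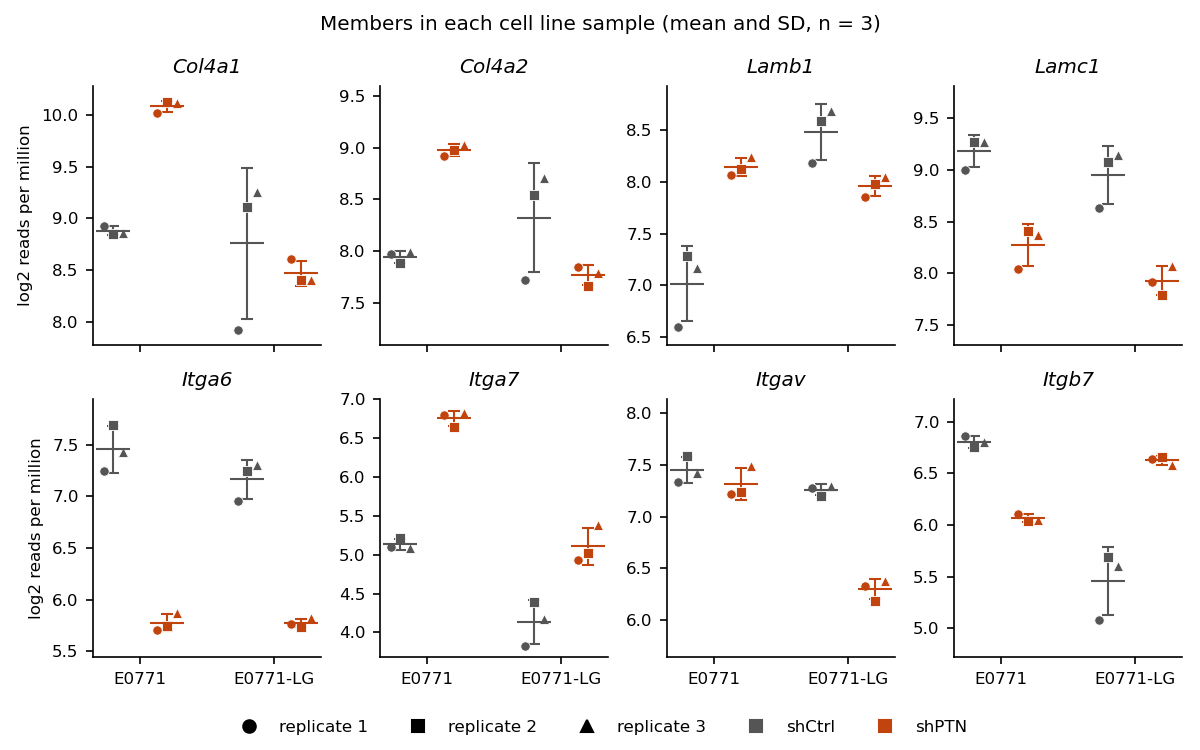
Values (log2 CPM) for Col4a1, Col4a2, Lamb1, Lamc1, Itga6, Itga7, Itgav and Itgb7 in each library of both lines (gray shCtrl, orange shPTN, marker shape the replicate), with the mean and SD of n = 3. Itga6 is lower and Itga7 higher in every knockdown library, while Col4a1, Col4a2, Lamb1 and Itgb7 move differently in E0771 and E0771-LG.

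Collagen-binding alpha chains sit side by side on chromosome 13, with 20995 bases between Itga2 and Itga1 on the same strand. In E0771, Itga1 stood at 4.78, 5.18 and 4.88 in shCtrl and at 5.86, 6.29 and 6.10 in shPTN. Itga2, named after its values were seen, stood at 0.91, 2.28 and 1.79 in shCtrl and at -0.06, 0.18 and -0.11 in shPTN, or 32 to 99 reads against 14 to 20. Itga1 was higher and Itga2 lower in each knockdown library, without overlap. Itga1 rose by 1.14 (SE 0.14, adjusted p = 0.000457), to 220% of control. Itga2 fell by 1.66 (SE 0.39, adjusted p = 0.0137), a call lost without shCtrl replicate 2 (-1.35) or shCtrl replicate 3 (-1.59), or in the fit of all 24 samples (-1.66), with adjusted p from 0.00493 to 0.0932 over 15 alternatives. In E0771-LG, Itga2 stood at 1.85, 1.37 and 1.70 in shCtrl and at 0.03, 0.50 and 0.55 in shPTN. These groups were apart, and Itga2 fell by 1.28 (SE 0.36, adjusted p = 0.0128), a call lost in the fit of all 24 samples (-1.28). Itga1 in E0771-LG stood at 5.43, 6.81 and 6.51 in shCtrl and at 6.37, 6.39 and 6.49 in shPTN, which overlap, and its log2 fold change was 0.17 (adjusted p = 0.723). With 1 library left out that value ran from -0.24 to 0.45, so its sign rested on 1 library. The effects on Itga1 differed by -0.97 (adjusted p = 0.0775), and passed without E0771-LG shCtrl replicate 1 (-1.38), by eBayes without robust or with the replicate block (-0.97 in both) (adjusted p 0.000236 to 0.168 over 20 alternatives).

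Of the integrin chains that bind the RGD motif of fibronectin and vitronectin, Itgav had an effect that differed between the lines. Itgav is the alpha chain shared by the vitronectin receptors. In E0771-LG, Itgav stood at 7.28, 7.20 and 7.30 in shCtrl and at 6.33, 6.19 and 6.38 in shPTN. Itgav in E0771 stood at 7.34, 7.59 and 7.42 in shCtrl and at 7.22, 7.24 and 7.49 in shPTN. The groups were well apart in E0771-LG and overlapped in E0771. Itgav fell by 0.96 in E0771-LG (SE 0.10, adjusted p = 6.11e-05), to 51.4% of control, and had a log2 fold change of -0.13 in E0771 (adjusted p = 0.394). The effects differed by -0.83 (SE 0.14, adjusted p = 0.000594). Itgb3, its partner in vitronectin binding, stood at 4.23, 4.66 and 4.41 in E0771-LG shCtrl and at 3.01, 4.03 and 3.96 in shPTN. All its knockdown values were below the controls, with replicate 1 the lowest, and Itgb3 fell by 0.77 (SE 0.26, adjusted p = 0.036), to 58.7% of control. The call was lost without shCtrl replicate 2 (-0.65), shCtrl replicate 3 (-0.78) or shPTN replicate 1 (-0.44), and with no filter or in the fit of all 24 samples (-0.77 in both), with adjusted p from 0.00493 to 0.119 over 16 alternatives. In E0771, Itgb3 stood at 2.85, 3.56 and 3.53 in shCtrl and at 3.23, 3.72 and 3.59 in shPTN, overlapping, with a log2 fold change of 0.20 (adjusted p = 0.57). The effects on Itgb3 differed by -0.97 (adjusted p = 0.0578), a difference that passed without E0771 shPTN replicate 1 (-1.11), E0771-LG shPTN replicate 2 (-1.15) or E0771-LG shPTN replicate 3 (-1.11), and with all libraries kept by the replicate block (-0.97), median-of-ratios scaling (-1.03) or quantile normalization (-1.13), with adjusted p from 0.012 to 0.134 over 20 alternatives.

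Itga5, the alpha chain of the fibronectin receptor, was lower in knockdown cells of both lines. In E0771, Itga5 stood at 7.24, 7.57 and 7.44 in shCtrl and at 6.90, 6.63 and 6.93 in shPTN. Itga5 in E0771-LG stood at 7.40, 7.75 and 7.50 in shCtrl and at 7.09, 7.30 and 7.33 in shPTN. The groups did not overlap in either line, though the gap in E0771-LG was narrow. Itga5 fell by 0.59 in E0771 (SE 0.11, adjusted p = 0.00417), to 66.3% of control, a call lost in the fit of all 24 samples (-0.59). It fell by 0.31 in E0771-LG (SE 0.11, adjusted p = 0.0427), a call lost without shCtrl replicate 2 (-0.21), shCtrl replicate 3 (-0.34), shPTN replicate 1 (-0.24), shPTN replicate 2 (-0.34) or shPTN replicate 3 (-0.36), and with no filter (-0.31), quantile normalization (-0.21) or in the fit of all 24 samples (-0.31), with adjusted p from 0.00889 to 0.364 over 16 alternatives. Itgb1, the beta chain that most of these alpha chains share, stood at 9.66, 9.85 and 9.66 in E0771 shCtrl and at 9.59, 9.75 and 9.66 in shPTN. Its groups overlapped, and its log2 fold change was -0.05 (adjusted p = 0.701). In E0771-LG, Itgb1 stood at 9.34, 9.77 and 9.81 in shCtrl and at 9.52, 9.54 and 9.50 in shPTN. There too the groups overlapped, with a log2 fold change of -0.12 (adjusted p = 0.442), and without shCtrl replicate 1 it was called at -0.27 (adjusted p 0.00664 to 0.867 over 16 alternatives).

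Itgb7, the beta chain of gut-homing leukocyte integrins, moved in opposite directions in the lines. In E0771, Itgb7 stood at 6.86, 6.75 and 6.80 in shCtrl and at 6.11, 6.04 and 6.05 in shPTN. Itgb7 in E0771-LG stood at 5.08, 5.69 and 5.60 in shCtrl and at 6.64, 6.66 and 6.58 in shPTN. No values overlapped, with the knockdown libraries below the controls in E0771 and above them in E0771-LG. Itgb7 fell by 0.74 in E0771 (SE 0.08, adjusted p = 0.000249), to 59.9% of control, and rose by 1.17 in E0771-LG (SE 0.15, adjusted p = 0.000192), to 225% of control. The E0771 call was lost in the fit of all 24 samples (-0.74). The difference of 1.91 (SE 0.18, adjusted p = 9.33e-06) was the largest in absolute size among the 32 members tested in both lines. At an unadjusted p under 0.05, 5632 of the 10405 genes tested in E0771-LG passed in either direction. The leukocyte marker list, beside Itgb7, had 1 of 2 tested genes called higher in E0771 (Coro1a). In E0771-LG that list had 0 of 2 called by limma and 2 higher at that unadjusted p, and voom was not counted for lists. Its summed values were 28.6, 33.5 and 29 in E0771 shCtrl and 53.1, 37.9 and 45.2 in shPTN, and 29.7, 41.1 and 31.6 in E0771-LG shCtrl and 36.2, 49.9 and 52.5 in shPTN, where they overlap, with Itgb2 the most abundant in both, and Ptprc, Cd3e, Csf1r and Adgre1 were too low to test in both lines.

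On a scale per length, Itgb1 had the highest level of the members in E0771 shCtrl, at 208 RPKM, followed by Lamc1 (70.5), Col4a1 (63.2) and Nid1 (58.1). In E0771-LG shCtrl the order per kilobase was Itgb1 (197), Nid1 (102), Col4a1 (62.7) and Lamc1 (60.5). The integrin alpha chains summed to 101 RPKM in E0771 shCtrl (SD 13, n = 3) and 83.4 in shPTN (SD 4.80). In E0771-LG that sum was 96.9 in shCtrl (SD 10.4) and 63.8 in shPTN (SD 4.75), while Itgb1 went from 197 (SD 33.6) to 180 (SD 2.66). For the alpha chain sums, the gap between the means was wider than the SD of either group in both lines. In E0771 those sums overlapped between the groups (87.6 in shCtrl replicate 1 and 88.6 in shPTN replicate 3).

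Of the 32 members tested in both lines, 9 were called in both, against 1028 of 10223 genes. Itga2, Itga5, Itga6 and Lamc1 were lower in both, Col6a3 and Itga7 higher in both, and Col8a1, Itgb7 and Lamb1 opposite. Calls shared in the same direction made up 35.3% of the members called in E0771 and 50% of those called in E0771-LG, against 33% and 14.6% over the table. Among those called in both, 33.3% of members were opposite, against 32.5% of genes.

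**Figure D4:**
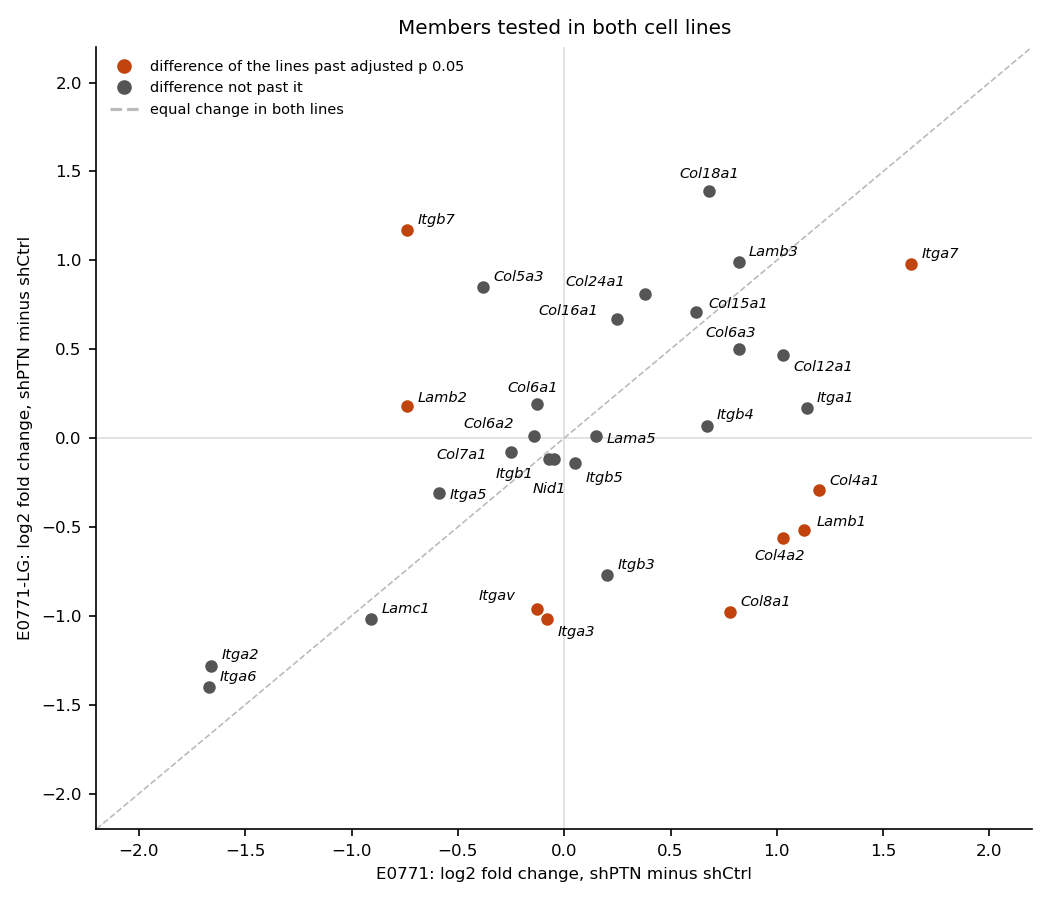
Log2 fold change of shPTN against shCtrl in E0771 (horizontal) and E0771-LG (vertical) for 31 of the 32 members tested in both lines, with the dashed line at equal effects and orange for the 9 shown whose effects differ at an adjusted p under 0.05. Itgb7 lies above the line, and Lamb1, Col8a1, Col4a1 and Col4a2 lie below it.

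Genes around the members were counted in lists, to be read beside the share of all genes tested that was called: for E0771, 11.7% with a decrease and 8.89% with an increase, and for E0771-LG, 22.1% and 24.3%. At an unadjusted p under 0.05, 3541 of 10394 genes passed in E0771 and 5632 of 10405 in E0771-LG, in either direction. The lists hold few genes, and their counts were not tested against those shares. Of 19 collagen synthesis enzymes tested in E0771, 1 was lower and 4 higher (median 0.15), among them the prolyl hydroxylase chain P4ha3 (1.78), the procollagen proteinase enhancer Pcolce (0.68) and the lysyl hydroxylase Plod1 (0.64). In E0771-LG 1 of 20 was lower and 5 higher (median 0.19), with P3h4 at 0.77, P3h1 at 0.75 and P4ha3 at 0.75, a share near that of the table for higher genes. Other basement membrane genes gave 2 of 7 lower and 1 higher in E0771 (median 0.22), with Papln at 1.31, the proteoglycan agrin (Agrn) at -0.41 and Fbln2 at -0.39. In E0771-LG they gave 0 of 7 in either direction by limma (0 lower and 1 higher at an unadjusted p under 0.05; voom was not counted for lists), with a median of 0.02. Other matrix receptors gave 0 of 11 lower (1 at an unadjusted p under 0.05) and 5 higher in E0771 (median 0.24), led by the laminin receptor Bcam (1.80) and the syndecan Sdc3 (1.64), with the collagen receptor Ddr1 at 0.79. In E0771-LG 3 of 9 were lower and 3 higher (median 0.20), with Ddr2 at -0.80, Sdc2 at -0.79 and dystroglycan (Dag1) at -0.62. Integrin activators and adaptors gave 0 of 14 lower (1 at an unadjusted p under 0.05) and 1 higher in E0771 (Parva, 0.45, median -0.02). In E0771-LG they gave 3 of 14 lower and 2 higher (median -0.13), led by Apbb1ip (-0.69), Sharpin (0.64) and Itgb1bp1 (0.61). Integrin ligands gave 1 of 8 lower and 5 higher in E0771 (median 0.80), led by the thrombospondins Thbs1 (2.70) and Thbs2 (2.41) and by tenascin C (Tnc, 1.28). In E0771-LG 2 of 8 were lower (Thbs1 at -2.07 and Vcam1 at -0.70) and 0 higher (0 at an unadjusted p under 0.05), with a median of -0.26.

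Cell type markers also moved in the lines, and their part in the members' changes was not tested. Fibroblast markers in E0771 were higher for 4 of 4 tested, with the left-out collagens Col3a1 (2.83) and Col1a2 (2.36) and with Pdgfra (1.43), at summed values of 69.4, 92.5 and 79.8 in shCtrl and 312, 268 and 312 in shPTN (Col3a1 the most abundant, Dcn and Lum not tested, Fap not analysed here). In E0771-LG 2 of 5 were lower (Col1a1 at -4.68 and Pdgfra at -0.68) and 1 higher (Dcn), with sums of 76.3, 117 and 92.4 in shCtrl and 53.8, 54.3 and 61.4 in shPTN. The fibroblast sum thus moved with collagen IV in E0771 and against Itgb7 in both lines. The myoepithelial and pericyte sums given below did the same, while the luminal sum rose with Itgb7 in E0771-LG. Luminal markers in E0771 gave 0 of 2 by limma (1 higher at an unadjusted p under 0.05), with sums of 99.3, 114 and 107 in shCtrl and 115, 98.9 and 108 in shPTN, and Krt18, Krt19, Cdh1 and Elf5 were too low to test in that carcinoma line. In E0771-LG 3 of 3 were higher (Krt18 at 3.00, Krt8 at 1.57, Epcam at 0.46), with sums of 158, 204 and 164 in shCtrl and 424, 564 and 515 in shPTN. Myoepithelial markers were higher for 2 of 2 tested in E0771 (Acta2 at 2.38 and Trp63 at 2.10), with sums of 41.1, 24.5 and 31.1 in shCtrl and 139, 212 and 144 in shPTN. In E0771-LG Acta2 was lower (-2.27) and Krt17 higher, with sums of 54.6, 25.3 and 37 in shCtrl and 10.5, 12.1 and 8.32 in shPTN. Acta2 thus moved in opposite directions in the lines, as Lamb1 did.

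Pericyte markers were higher for 2 of 2 tested in E0771 (Pdgfrb at 1.61 and Des at 1.32) and lower for 1 of 3 in E0771-LG (Rgs5). Their sums in E0771 were 8.12, 13.4 and 11.7 in shCtrl and 31.2, 33.5 and 29.9 in shPTN. The E0771-LG sums were 19.3, 37 and 21.1 in shCtrl and 8.43, 16.2 and 17 in shPTN. Endothelial markers gave 1 of 2 higher in E0771 (Tie1) and 1 of 3 in E0771-LG (Egfl7), with Kdr, Pecam1 and Emcn too low to test in both. Skeletal muscle markers, given beside Itga7, had 0 of 1 called by limma in E0771 (0 at an unadjusted p under 0.05) and sums of 1.51, 1.57 and 3.13 in shCtrl and 1.97, 2.05 and 2.24 in shPTN. In E0771-LG 1 of 2 was lower (Acta1 at -1.20), with sums of 5.32, 3.52 and 2.69 in shCtrl and 1.99, 2.88 and 2.58 in shPTN, and Tnnt3, Tnni2 and Myh4 were too low to test in both lines. Adipocyte markers gave 0 of 1 in E0771 (0 at an unadjusted p under 0.05) and 1 of 1 lower in E0771-LG (Fabp4 at -2.46), and of the megakaryocyte markers none was high enough to test in either line.

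In 4T1 tumors, no member was called between 3B10 and C44, and single members stood out only before adjustment. Of 41 members tested, 0 were lower and 0 higher by limma, against 0% and 0% of the genes tested, and the smallest adjusted p was 0.725. At an unadjusted p under 0.05, 2 members were lower, or 4.88%, against 3.1% of the genes tested. On the same rule 3 were higher, or 7.32%, against 3.17% of the genes tested. These 5 became 1 or 2 without any 1 of C44 replicates 1, 2 and 3 and 3B10 replicates 2 and 3, 7 without 3B10 replicate 1, 2 with the replicate block and 3 in the fit of all 24 samples. The 719 genes of the whole table at that p ran from 370 (without 3B10 replicate 3) to 1302 (without C44 replicate 3, where the members gave 2) when 1 tumor was left out, with 1069 without 3B10 replicate 1, and were 606 with the block and 696 in the fit of all 24 samples. The median log2 fold change was -0.04 over the members and 0.01 over the genes tested, and the median SE was 0.32 against 0.18, so smaller differences were less detectable for the members. The members' median was -0.25 without C44 replicate 3 and 0.18 without 3B10 replicate 1, so its sign rested on single tumors. Voom needs reads and was not run on 4T1. In whole tumors, fewer cells of a type and less RNA per cell cannot be told apart.

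Of the 5 members with the smallest p in 4T1, Col4a5, Itgb7, Itga7 and Lamb3 are described. Lamb3 stood at log2 values of 3.58, 3.91 and 2.81 in C44 replicates 1, 2 and 3 and at 3.63, 4.84 and 4.49 in the 3B10 replicates. Its 3B10 replicates 2 and 3 were above the C44 tumors while replicate 1 was within their range. Lamb3 came to 0.89 on the log2 scale (SE 0.38, adjusted p = 0.783). Col4a5, a collagen IV chain of specialized basement membranes, stood at 4.15, 4.29 and 3.94 in C44 and at 3.78, 3.31 and 3.76 in 3B10. Its 3B10 values were all below its C44 values, at a change of -0.51 (SE 0.19, adjusted p = 0.725). Itgb7 stood at 3.48, 4.48 and 4.04 in C44 and at 3.62, 3.25 and 2.70 in 3B10. Those groups overlapped in 3B10 replicate 1, and the change of -0.81 (SE 0.32) had an adjusted p of 0.741. Itga7 stood at 2.64, 2.84 and 2.60 in C44 and at 2.95, 3.09 and 3.40 in 3B10. Each of its 3B10 values was above each C44 value, at a change of 0.45 (SE 0.19, adjusted p = 0.772).

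Among the partner chains in 4T1, Col4a1 had a log2 fold change of -0.12 and Col4a2 of -0.17, Lama5 of 0.08, Lamb1 of -0.12, Lamc1 of 0.02 and Nid1 of 0.01. The collagen VI chains were at 0.34 for Col6a1, 0.47 for Col6a2 and 0.42 for Col6a3, which without 3B10 replicate 2 came to 0.04, -0.04 and -0.03. Integrin chains were at -0.05 for Itgb1, 0.05 for Itgav, -0.19 for Itgb3, -0.12 for Itga6 and -0.04 for Itgb4. Each of these chains but Col6a1 changed sign when some 1 tumor was left out. The 9 members not tested in 4T1 were Col4a6, Col9a1, Col9a2, Col9a3, Col11a1, Col17a1, Col25a1, Itgb6 and Lama1, with a highest log2 value of 2.02. Ptn itself was too low to test, at -0.19, -0.65 and -0.12 in C44 and -0.76, 0.86 and 0.37 in 3B10, and an antibody against the protein need not alter its mRNA.

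Marker lists in 4T1 gave 0 calls by limma in each of 9 cell types, and their part in the values above was not tested. Leukocyte markers, given beside Itgb7, summed to 786, 704 and 588 off the log scale in C44 and to 412, 563 and 393 in 3B10, with 4 of 6 lower at an unadjusted p under 0.05 and a median of -0.70 (Coro1a the most abundant). The 3B10 sums were all below the C44 sums. Luminal markers, given beside Lamb3, summed to 3210, 3460 and 3450 in C44 and to 4760, 4410 and 5090 in 3B10, with 4 of 5 higher at an unadjusted p under 0.05 and a median of 0.55 (Krt18 the most abundant, Elf5 not tested). Myoepithelial markers summed to 220, 321 and 114 in C44 and to 375, 472 and 227 in 3B10, with 1 of 4 higher at an unadjusted p under 0.05 and a median of 0.88 (Acta2 the most abundant, Krt5 and Oxtr not tested). The luminal sums were apart and the myoepithelial sums overlapped. Skeletal muscle markers, given beside Itga7, summed to 32, 28.6 and 60.5 in C44 and to 74.8, 202 and 336 in 3B10, with 4 of 4 higher at an unadjusted p under 0.05 and a median of 2.43 (Tnnt3 the most abundant, Myh4 not tested, Ckm and Ttn not analysed here). Each 3B10 muscle sum was above each C44 sum. Fibroblast markers summed to 1290, 1740 and 1140 in C44 and to 941, 4010 and 1600 in 3B10, with 1 of 6 lower and 1 higher at an unadjusted p under 0.05 and a median of 0.30 (Col1a1 the most abundant).

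Endothelial markers in 4T1 summed to 113, 268 and 172 in C44 and to 134, 225 and 104 in 3B10, with 0 of 6 at an unadjusted p under 0.05 and a median of -0.22 (Cdh5 the most abundant, Tek not analysed here). Pericyte markers summed to 55.7, 136 and 96.2 in C44 and to 59.1, 139 and 96 in 3B10, with 1 of 4 higher at an unadjusted p under 0.05 (median -0.18). Megakaryocyte markers summed to 98.4, 202 and 88.2 in C44 and to 137, 138 and 97 in 3B10 (0 of 2 at an unadjusted p under 0.05, median 0.11), and adipocyte markers to 12.1, 37.9 and 41.8 in C44 and 27.4, 33.9 and 25.2 in 3B10 (0 of 2, median 0.25). These sums overlapped between the groups. C44 replicate 2 was the highest of its group for 28 of 41 members. It also had the highest endothelial, pericyte, fibroblast, megakaryocyte, myoepithelial and, narrowly, luminal sums of its group. The leukocyte sum of C44 was highest in replicate 1, and the skeletal muscle and adipocyte sums in replicate 3. The pathway lists gave 0 calls in 4T1 by limma, with medians of 0.00 for 21 collagen synthesis enzymes (0 at an unadjusted p under 0.05), 0.02 for 9 other basement membrane genes (1 higher), -0.10 for 11 other matrix receptors (1 lower), 0.02 for 15 integrin activators and adaptors (1 lower) and -0.06 for 10 integrin ligands (2 lower).

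**Figure D5:**
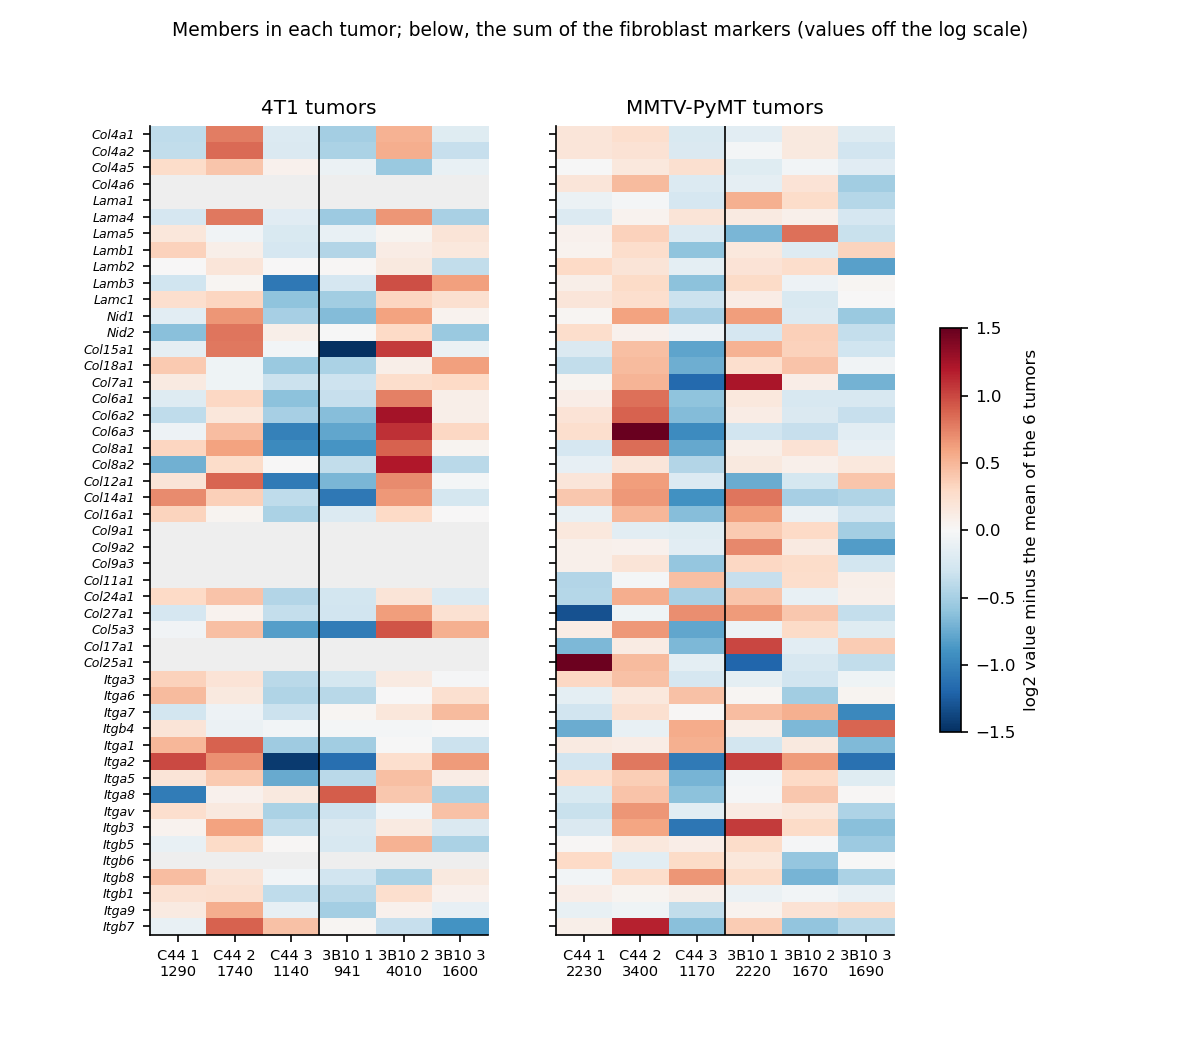
Log2 value of 49 members minus the mean over the 6 tumors of the experiment, by tumor, for 4T1 and MMTV-PyMT, with gray where a member was not tested and the summed fibroblast markers under each tumor. Whole columns are high or low within a group, such as C44 replicates 2 and 3 of MMTV-PyMT with fibroblast sums of 3400 and 1170. Several other marker sums, not drawn, had the same order in the C44 tumors of MMTV-PyMT.

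In MMTV-PyMT tumors, no member was called between 3B10 and C44. Of 50 members tested, 0 were lower and 0 higher by limma, against 0% and 0% of the genes tested, and every adjusted p of a member was 1. At an unadjusted p under 0.05, 1 member was lower, or 2%, against 1.18% of the genes tested. On that rule 0 were higher, or 0%, against 1.52% of the genes tested. Voom gave 0 calls and 1 member at an unadjusted p under 0.05. The median log2 fold change was -0.05 over the members and 0.05 over the genes tested, with a median SE of 0.29 against 0.20. The members' median was -0.20 without C44 replicate 3 and 0.11 without C44 replicate 2. Over the alternatives the members at an unadjusted p under 0.05 ran from 0 (replicate block) to 5 (without C44 replicate 2 or C44 replicate 3). The whole table gave 350, 406 and 342 genes in those settings, against 307. In the fit of all 24 samples, 725 genes and 2 members had an unadjusted p under 0.05.

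The 5 members with the smallest p in MMTV-PyMT were Col25a1, Col17a1, Itga1, Itgb8 and Col4a5. Col25a1, a transmembrane collagen, stood at 5.96, 4.97 and 4.35 log2 CPM in C44 and at 3.31, 4.25 and 4.13 in 3B10. Its 3B10 values were all below its C44 values, at a change of -1.19 (SE 0.43, adjusted p = 1). Col17a1, the transmembrane collagen of hemidesmosomes, stood at 2.30, 3.10 and 2.30 in C44 and at 3.98, 2.82 and 3.35 in 3B10. The groups overlapped, at a change of 0.81 (SE 0.37, adjusted p = 1). Itga1 stood at 4.22, 4.20 and 4.62 in C44 and at 3.81, 4.23 and 3.42 in 3B10. Itgb8, a beta chain that binds latent TGF-beta, stood at 5.27, 5.58 and 5.98 in C44 and at 5.59, 4.62 and 4.84 in 3B10. Both overlapped between the groups, with log2 fold changes of -0.53 for Itga1 (SE 0.25) and -0.60 for Itgb8 (SE 0.28). Col4a5 stood at 7.51, 7.67 and 7.76 in C44 and at 7.33, 7.47 and 7.35 in 3B10. As in 4T1, its 3B10 values were all below its C44 values, at a change of -0.26 (SE 0.13, adjusted p = 1).

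Among the partner chains in MMTV-PyMT, Col4a1 had a log2 fold change of -0.14 and Col4a2 of -0.12, Lama5 of -0.12, Lamb1 of 0.20, Lamc1 of -0.07, Lamb3 of 0.17 and Nid1 of -0.09. The collagen VI chains were at -0.21 for Col6a1, -0.29 for Col6a2 and -0.53 for Col6a3, which without C44 replicate 2 came to 0.15, 0.08 and 0.07. Integrin chains were at -0.15 for Itgb1, -0.11 for Itgav, 0.48 for Itgb3, -0.30 for Itga6 and 0.20 for Itgb4. Of these, Lama5, Lamb1, Lamc1, Lamb3, Nid1, Itgav, Itgb4 and the collagen VI chains changed sign when some 1 tumor was left out. Without 1 tumor Itgb3 ran from 0.05 (C44 replicate 3) to 0.91 (3B10 replicate 3) and Itga6 from -0.45 (C44 replicate 1) to -0.11 (3B10 replicate 2). Col4a1 likewise ran from -0.29 to -0.05 and Col4a2 from -0.26 to 0.00. Ptn stood at 2.80, 2.73 and 3.42 in C44 and at 3.28, 2.95 and 4.22 in 3B10, which overlap, with a log2 fold change of 0.50 (adjusted p = 1). On a scale per length, Itgb1 had the highest member level in C44 tumors at 148 RPKM, followed by the cartilage-type collagens Col9a1 (97.9) and Col9a2 (82.1), named after their values were seen. Both Col9 chains were too low to test in 4T1. The collagen IV chains summed to 120 RPKM in C44 (SD 14.4, n = 3) and 105 in 3B10 (SD 13.7), a gap near the spread between tumors.

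Marker lists in MMTV-PyMT gave 0 calls by limma in each cell type tested. Fibroblast markers summed to 2230, 3400 and 1170 in C44 and to 2220, 1670 and 1690 in 3B10, with 0 of 6 at an unadjusted p under 0.05 and a median of -0.21 (Col1a1 the most abundant). C44 replicates 2 and 3, which stood apart across the members, had the highest and lowest fibroblast sums of their group. The endothelial, leukocyte, pericyte, myoepithelial and adipocyte sums of C44 had that order too. Luminal and skeletal muscle sums were highest in C44 replicate 1 and lowest in replicate 3. Myoepithelial markers summed to 193, 529 and 113 in C44 and to 393, 282 and 320 in 3B10, with 1 of 6 higher at an unadjusted p under 0.05 and a median of 0.27 (Krt14 the most abundant). Luminal markers summed to 5940, 5500 and 4080 in C44 and to 4610, 5230 and 4230 in 3B10 (0 of 6, median -0.10), and endothelial markers to 141, 174 and 108 in C44 and 166, 171 and 115 in 3B10 (0 of 6, median 0.08). Leukocyte markers summed to 144, 152 and 118 in C44 and to 187, 127 and 107 in 3B10 (0 of 5, median -0.04), and pericyte markers to 216, 238 and 197 in C44 and 195, 240 and 143 in 3B10 (0 of 4, median -0.18). Skeletal muscle markers summed to 31.6, 13.2 and 7.94 in C44 and to 9.7, 11.6 and 9.97 in 3B10 (0 of 5, median -0.52), and adipocyte markers to 27.2, 34.5 and 15 in C44 and 64, 33.8 and 37 in 3B10 (1 of 2 higher, median 0.68). Both megakaryocyte markers analysed were too low to test. The pathway lists gave 0 calls by limma, with medians of -0.07 for 21 collagen synthesis enzymes (2 lower at an unadjusted p under 0.05), -0.23 for 9 other basement membrane genes (1 lower), -0.07 for 11 other matrix receptors (0), -0.01 for 15 integrin activators and adaptors (0) and -0.17 for 10 integrin ligands (3 lower).

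The effect of the antibody was compared between the tumor models for the 41 members tested in both. By limma 0 differed, against 0% of the genes tested. At an unadjusted p under 0.05, 2 differed, or 4.88%, against 2.31% of the genes tested, with voom not run across the models. Among these was Itga9, a tenascin receptor chain named after its values were seen, with an effect in MMTV-PyMT minus that in 4T1 of 0.74 (adjusted p = 1). With the scale of 4T1 differing from that of MMTV-PyMT, levels were not compared between the models.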

How the data were processed

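The deposited table used here holds log2 expression values for 12091 genes in 24 samples, with both the Ensembl identifier and the symbol of each gene. Per the submitters' notes, reads were aligned to mm10 (GRCm38) with HISAT2 and counted with featureCounts, and limma and edgeR were used, with no versions given. In 18 samples 100% of the deposited log2 values came out as whole reads within 0.01 read after removing a 0.5-read offset, the largest distance being 0.00091, and libraries ran from 15.63 to 21.12 M reads. The values of the 4T1 samples did not, so their depth is unknown, and reads were not recovered there. The authors' methods test counts with edgeR, but the table holds log2 values, so limma 3.58.1 in R 4.3.3 was used (lmFit, then eBayes with trend and robust), within each experiment, p-values being adjusted by Benjamini-Hochberg across its tested genes. Differences of effects are the interaction term of a fit over 2 experiments. An exact permutation test of 3 against 3 samples cannot go below 0.1 and was not used. The scripts were tested on simulated data.

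Named with values in each experiment were up to 12 members past an adjusted p of 0.05 with the largest absolute log2 fold change and a mean log2 value of at least 1, or, where few passed, the 5 with the smallest unadjusted p. Named in all experiments were the usual partner chains (Col4a1, Col4a2, Lama5, Lamb1, Lamc1, Lamb3, Nid1, Col6a1, Col6a2, Col6a3, Itgb1, Itgav, Itgb3, Itga6, Itgb4) and Ptn. Lama3 was also on the list of partner chains but was not analysed here. Members and lists were chosen with earlier results of these data known. The lists are markers of 9 cell types (endothelial, fibroblast, pericyte, leukocyte, megakaryocyte, myoepithelial, luminal, skeletal muscle, adipocyte) and 5 groups around the members (collagen synthesis enzymes, other basement membrane genes, other matrix receptors, integrin activators and adaptors, integrin ligands), with sums taken off the log scale. A member and a marker are not reported here by name; they stay in the fits and counts. Lists were counted with the reported settings only. Levels per kilobase use exon lengths of GENCODE M21 on GRCm38, and promoter windows come from RefSeq on GRCm38.p6. In 4T1, 3B10 replicate 2 was matched to its deposited values by the sample description, since the numbers in the table differ from the replicate numbers.

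Alternatives were no filter, a filter of at least 5, eBayes without robust, and a replicate block (the replicate number as a fit term). Further ones were pseudocounts of 1 and 0.1, median-of-ratios scaling, quantile normalization, a fit of all 24 samples, limma voom on the recovered reads, and leaving out each library. The version of statmod was 1.5.0.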

Additional observations from a re-analysis of the deposited data

Results flagged for a closer look

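Each of these members had an effect of Ptn knockdown that differed between E0771-LG and E0771 by the interaction term of limma, given as the log2 fold change in E0771-LG minus that in E0771. For Itgb7, called in opposite directions, the effects differed by 1.91. Lamb1 differed by -1.66 and was also called in opposite directions. For Itgav the effects differed by -0.83. Col4a2 differed by -1.59, and Col4a1 by -1.49. For Col8a1, also called in opposite directions, the effects differed by -1.76. Itga3 differed by -0.94. For Itga7, higher in both lines, the effects differed by -0.64, and the difference passed in 15 of 20 alternatives. Lamb2, which the naming rule did not pick, differed by 0.92 and passed in each of the 20. Effects differed for 31.2% of the members tested in both lines, against 34.7% of the genes tested.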

How the results depend on the processing

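Over the alternatives, 89 results for genes picked by the naming rule, Ptn among them, gave 1438 values. Of these, 1325 kept their direction and their side of the threshold, 44 lost a call and 6 gained a call. A further 63 changed sign where nothing was called, while 0 called values changed sign. The tally leaves out the gained calls of Col18a1 in E0771-LG, of Col5a3, and of the differences for Itga1 and Itgb3. It also leaves out the lost calls of Itga2 in both lines and of Itga5, Lamb2 and Col18a1 in E0771. In E0771, 8 of 17 called members passed in each of 16 alternatives (among them Col4a1, Col4a2, Itga1, Itga6, Itga7, Lamb1 and Lamc1), in E0771-LG 6 of 12 (Itga3, Itga6, Itga7, Itgav, Itgb7, Lamc1), and for the difference of the lines 8 of 10 in 20 alternatives, Itga7 not among them. Fitting all 24 samples together gave 2 lower and 6 higher members in E0771, beside 554 and 358 of 10394 genes (1216 and 924 as reported), and 4 lower and 4 higher in E0771-LG, beside 1840 and 2282 of 10405 (2295 and 2531 as reported); the cause was not tested. Of the members described, that fit lost the calls of Col6a3 (0.82), Col8a1 (0.78), Col18a1 (0.68), Itga2 (-1.66), Itga5 (-0.59), Itgb4 (0.67), Itgb7 (-0.74), Lamb2 (-0.74) and Lamb3 (0.82) in E0771 and of Col6a3 (0.50), Col8a1 (-0.98), Itga2 (-1.28), Itga5 (-0.31), Itgb3 (-0.77) and Lamb1 (-0.52) in E0771-LG, and gained Col18a1 (1.39) and Lamb3 (0.99) in E0771-LG. Leaving out 1 library at a time gave 2 to 7 higher members in E0771-LG (1657 to 2683 genes), each time with fewer samples. With the replicate block, E0771 had 7 lower and 10 higher members (1414 and 1036 genes), E0771-LG 9 lower and 4 higher (2378 and 2634 genes), the difference of the lines 12 (3729 genes, against 3550), and each tumor experiment 0 by limma. Samples share only a number: not every sample correlated best with its own number, and in no experiment was every correlation of same-numbered samples over 0.1. The limits of depth bear on Lamb3 and Itga2, which rest on 14 to 99 reads per library in E0771, and the depth of 4T1 is unknown. With 3 samples per group, a member that was not called may still differ.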
